A study of Mus musculus with 16 samples.

Results

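Potassium channel genes were defined as the protein-coding genes of the deposited expression table whose symbol is Kcn followed by letters and a number. These were 92 of the 54532 genes in the table, chosen by symbol and gene type. By gene family they were 40 voltage-gated (Kv) pore genes, 8 calcium- or sodium-activated pore genes, 15 inward rectifier (Kir) genes, 14 tandem-pore (K2P) genes and 15 auxiliary subunit genes. The samples were aortas of male Apoe-/- mice on the C57BL/6j background, aged 8 to 12 weeks, from which the adventitia had been removed. Both groups therefore lack apolipoprotein E, which makes mice prone to high blood cholesterol and atherosclerosis. In each, an osmotic pump delivered either saline (0.9% sodium chloride, 8 libraries, called Saline 1 to Saline 8) or angiotensin II (Ang II, 1000 ng/kg/min, 8 libraries) for 7 days before the aorta was taken. Infused Ang II is the vasoconstrictor peptide of the renin-angiotensin system, and in this strain it is widely used to provoke aortic aneurysm and dissection. The labels do not say whether each library came from a separate mouse, so the p-values below measure the spread between libraries. In whole aorta, fewer cells of a type and less RNA per cell cannot be told apart.

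Potassium channels let potassium leave the cell, which holds the membrane of vascular smooth muscle at a negative voltage and keeps voltage-gated calcium channels shut. Kv channels open on depolarisation, the large-conductance BK channel opens with calcium and voltage, Kir channels carry current near or below rest and include the ATP-sensitive channels, and K2P channels pass a background current. Auxiliary subunits bind the pores and change their gating, calcium sensitivity or surface level, so the make-up of a channel matters as well as its amount.

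Values are FPKM, reads scaled by transcript length and by the total reads of the library, and are given as mean ± SD over the 8 libraries of a group. A change is the difference of log2(FPKM + 1), Ang II minus saline, with its standard error (SE), from limma with Benjamini-Hochberg adjustment over the 15007 genes that averaged at least 0.5 FPKM, and rose or fell means an adjusted p below 0.05. This scale understates the change of genes near or below 1 FPKM. For some of those genes the fold from a limma voom fit to recovered reads is added. The read totals behind the FPKM, worked out from the values themselves, were 14606864 to 19988730 per library. At these totals 1 read in 1 kilobase is worth 0.050 to 0.0685 FPKM. Saline 2, Saline 7 and Saline 8 stood apart from the other libraries on the first principal component of all genes (46.9% of the variance). Smooth muscle markers were abundant throughout (8 genes, summed FPKM 9345 to 15712 in saline and 6702 to 11199 with Ang II).

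Of the 92 genes, 85 had reads in at least 1 library, 35 passed the expression filter and 57 did not. The genes listed at 0 in all 16 libraries were Kcna10, Kcnb2, Kcnj3, Kcnk15, Kcnk16, Kcnmb2 and Kcnv1. Among the 35 genes tested, 17 fell with Ang II and 3 rose. Over all genes tested, 24.9% fell and 9.54% rose, so the share of channel genes that fell (48.6%) was above that background and the share that rose (8.57%) was close to it. The same 24.9% and 9.54% are the background for the counts by class and by list below. The median change of the 35 genes was -0.44, against -0.12 for all genes tested. Median ratio scaling, which moved the median of all genes to -0.0031, left a median of -0.37 and 11 lower channel genes (31.4%, against 14.1% of all genes) and 3 higher (8.57%, against 14.9%). In the voom fit to reads 16 were lower (45.7%, against 24.3%) and 3 higher (against 9.66%). Without Ang II 3 the lower count was also 11, against 22.1% of all genes in that fit.

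**Figure D1:**
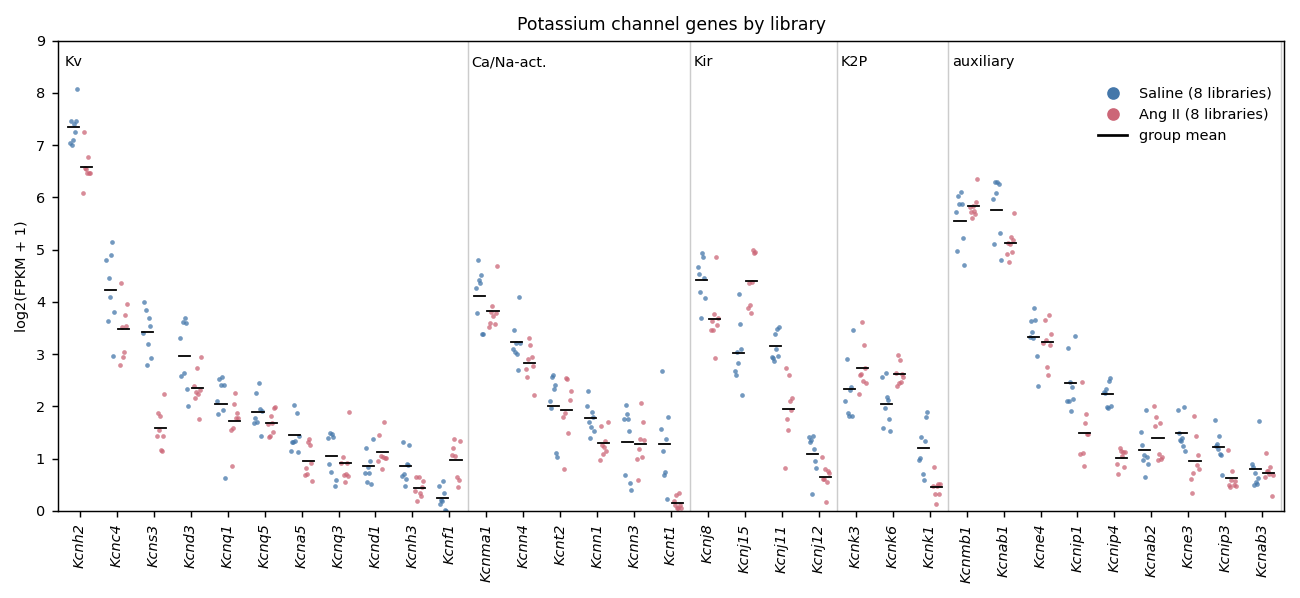
Level of 33 of the 35 tested potassium channel genes in each library, on the log2(FPKM + 1) scale, grouped by class and ordered by mean. Points are libraries (8 per group) and bars are group means. Kcnh2, Kcnmb1 and Kcnab1 stand highest, and the saline and Ang II points of Kcns3, Kcnj11 and Kcnip4 do not overlap.

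The groups were fully apart, Ang II under saline, in 4 of the 35 channel genes tested, among them Kcns3, Kcnj11 and Kcnip4. Such complete separation downward held for 5.62% of all genes tested. No channel gene separated completely upward, against 2.74% of all genes.

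**Figure D2:**
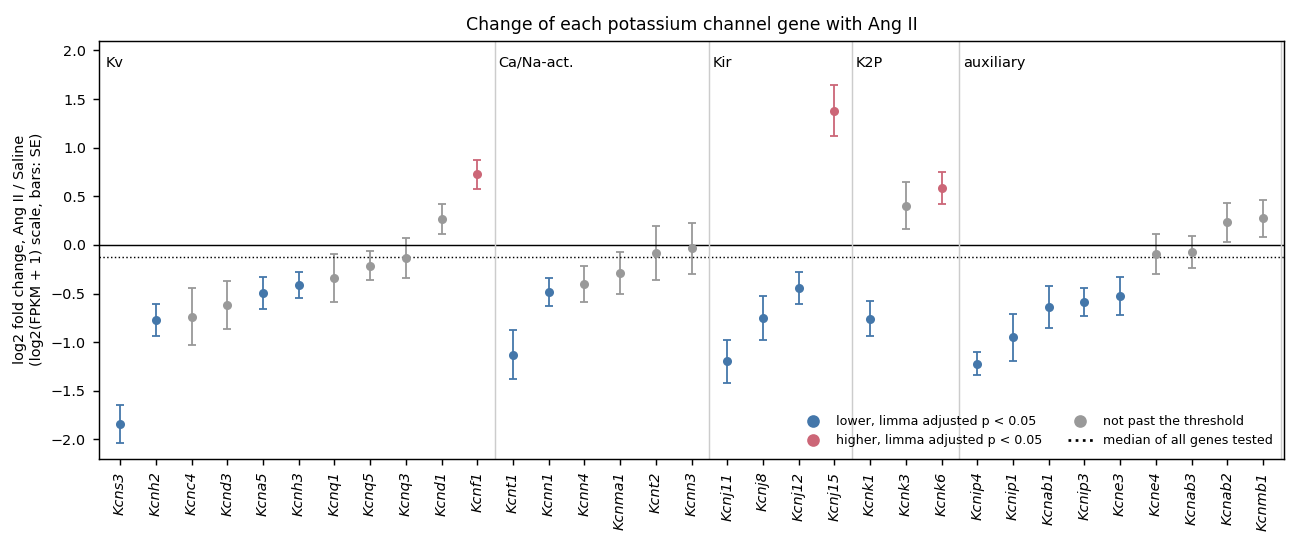
Difference of log2(FPKM + 1), Ang II minus saline, for 33 of the 35 tested genes by class, with bars showing the SE. Blue genes fell and red genes rose by limma at an adjusted p of 0.05. Grey genes did not pass, and the dotted line is the median of all genes tested (-0.12). The 15 falling genes shown are spread over all 5 classes, and the 3 rising genes are Kcnj15, Kcnf1 and Kcnk6.

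The 3 stretches of promoter shown here belong to the gene with the largest fall on the log2(FPKM + 1) scale, the most abundant gene and the gene with the largest rise on that scale. By voom on reads Kcnt1 fell more (12.2-fold) and Kcnf1 rose more (8.07-fold). Each is the 250 bases before a RefSeq start site (GRCm38.p6), 5′ to 3′ on the gene's strand, and none overlaps an annotated exon of GENCODE M21. The Kcns3 and Kcnh2 windows lie within the annotated span of the gene, before an internal start site. Which start site the reads came from was not tested. Capitals mark GGGCGG or its reverse complement CCGCCC, the core of a GC box.
Kcns3, chr12:11150374-11150623, minus strand: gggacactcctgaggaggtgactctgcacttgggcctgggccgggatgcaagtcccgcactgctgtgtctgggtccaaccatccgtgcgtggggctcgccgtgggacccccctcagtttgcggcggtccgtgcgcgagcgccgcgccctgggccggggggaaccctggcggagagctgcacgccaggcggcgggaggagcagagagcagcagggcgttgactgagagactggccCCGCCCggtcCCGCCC
Kcnh2, chr5:24329592-24329841, minus strand: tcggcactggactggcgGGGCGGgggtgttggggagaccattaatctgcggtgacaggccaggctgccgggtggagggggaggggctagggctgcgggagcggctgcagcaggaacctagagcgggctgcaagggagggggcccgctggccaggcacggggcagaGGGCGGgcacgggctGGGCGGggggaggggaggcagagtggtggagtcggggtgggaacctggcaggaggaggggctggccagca
Kcnj15, chr16:95257308-95257557, plus strand: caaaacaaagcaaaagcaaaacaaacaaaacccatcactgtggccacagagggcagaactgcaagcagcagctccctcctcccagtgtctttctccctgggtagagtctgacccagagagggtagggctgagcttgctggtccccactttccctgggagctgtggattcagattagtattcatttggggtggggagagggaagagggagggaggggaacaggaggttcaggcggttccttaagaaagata
The Kcns3 window holds 2 matches to GGGCGG on either strand and is 72.8% G and C, and the Kcnh2 window holds 3 at 73.6%. A second RefSeq window of Kcns3 (chr12:11150843-11151092), not shown, holds 1 match at 47.2% and overlaps 1 annotated exon. The Kcnj15 window holds none at 53.2%. RefSeq windows were matched by symbol for 67 of the 92 channel genes, 92 windows in all. A match to GGGCGG on either strand was present in 41 of these windows (44.6%), against 32.7% of the 32851 windows of all genes. TATAAA, searched on both strands, was in 3 (3.26%) against 12.4%. The CArG box bound by serum response factor, searched on both strands, was in 0 of the 92 against 1.47%. Windows of falling genes (22 windows of 12 genes) held GGGCGG in 8, or 36.4%. These counts describe letters in the windows and say nothing about factor binding.

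The Kv pores were the largest class by summed level, and their sum separated the groups. Their summed FPKM was 272 ± 50.5 in saline (220 to 380) and 149 ± 31.5 with Ang II (104 to 216), and the groups did not overlap. Of 40 genes 13 were tested, and 6 fell (among them Kcns3, Kcnh2, Kcnh3 and Kcna5) while 1 rose (Kcnf1), with a median change of -0.49. The class made up 55.9% of the summed FPKM of all channel genes in saline and 44.6% with Ang II.

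Kcnh2 encodes the ERG channel, a pore with slow closing that is best known for ending the cardiac action potential. It was the most abundant channel gene in both groups (chromosome 5, 24319589-24351604, minus strand). The saline libraries ran from 127 to 269 (median 159.9) FPKM, and the Ang II libraries from 67.1 to 151 (median 90.0). Saline 8 was far above the rest, and all Ang II libraries but Ang II 2 were under the saline range. Kcnh2 fell from 167 ± 45.9 to 96.9 ± 24.6 FPKM (change -0.77, SE 0.16, adjusted p = 0.0018), and by 0.67 (SE 0.14, adjusted p = 0.00161) without Saline 8. It supplied 61.3% of the Kv sum in saline and 65.2% with Ang II.

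Of the KCNQ pores, which open near the resting voltage, 2 on the list of vascular channel genes gave no call: Kcnq1 was at 3.44 ± 1.45 in saline and 2.39 ± 0.872 FPKM with Ang II (change -0.34, SE 0.25, adjusted p = 0.303) and Kcnq5 at 2.81 ± 0.908 in saline and 2.24 ± 0.515 FPKM with Ang II (change -0.21, SE 0.15, adjusted p = 0.27). In Saline 8 Kcnq1 was at 0.548 FPKM, the lowest of all libraries, and without that library its change was -0.54 (SE 0.18, adjusted p = 0.0274).

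Kcns3 encodes a silent Kv subunit, which makes no channel alone and joins other Kv pores to change their gating (chromosome 12, 11090202-11151056, minus strand). Saline libraries held 5.93 to 15 (median 10.1) FPKM, and Ang II libraries 1.2 to 3.68 (median 1.81). The highest Ang II library, Ang II 8, stood below the lowest saline library, Saline 4. Kcns3 fell from 10.1 ± 3.21 to 2.08 ± 0.836 FPKM (change -1.84, SE 0.19, adjusted p = 2.53e-06), 4.97-fold lower by voom on reads, the largest drop on the log2(FPKM + 1) scale among the 35 genes.

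**Figure D3:**
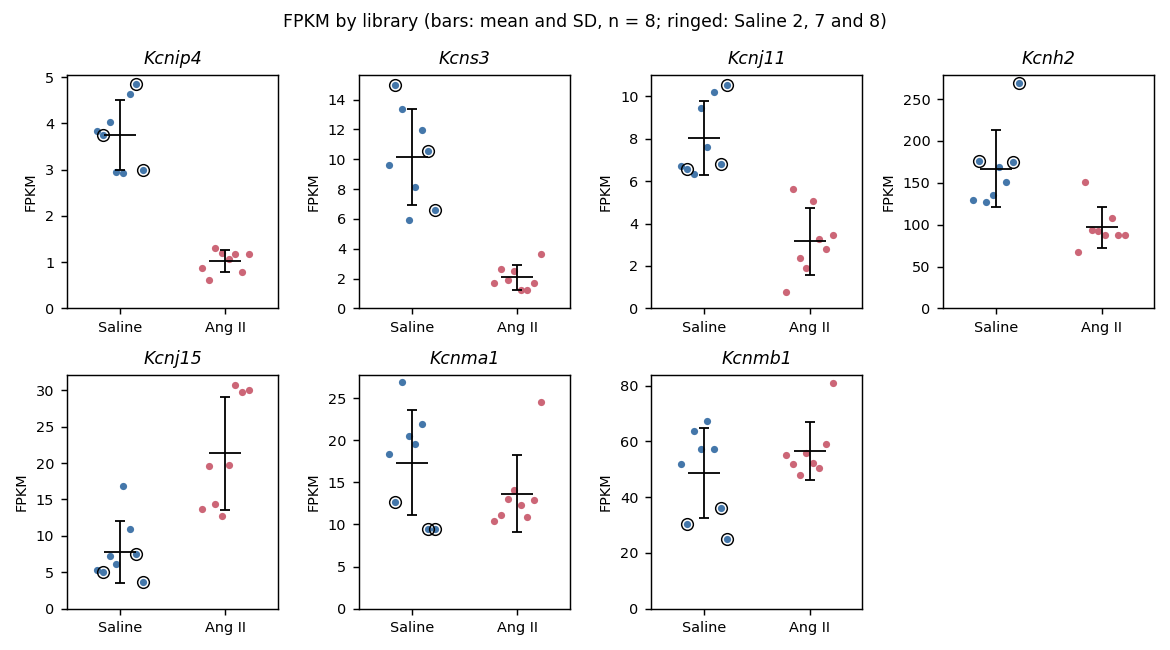
FPKM of 7 channel genes in each library (points, 8 per group), with the mean and SD as bars; Saline 2, Saline 7 and Saline 8 are ringed. Kcnip4, Kcns3 and Kcnj11 separate the groups, Kcnh2 and Kcnj15 overlap in part, and the ringed libraries are low for Kcnma1 and Kcnmb1.

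The other Kv pores were less abundant. Kcna5, the Kv pore that pairs with Kcnab1 in arteries, fell from 1.79 ± 0.685 to 0.977 ± 0.438 FPKM (change -0.49, SE 0.16, adjusted p = 0.0256; 1.89-fold lower by voom), with 5 of 8 Ang II libraries under the saline range. Kcnh3, of the ELK group of Kv pores, fell from 0.838 ± 0.404 to 0.361 ± 0.156 FPKM (change -0.41, SE 0.13, adjusted p = 0.0247; 2.23-fold lower by voom), and did not pass without Saline 7 and Saline 8 (adjusted p = 0.0657). Kcnc4, a fast Kv pore, was at 19.8 ± 9.61 in saline and 10.9 ± 4.6 FPKM with Ang II (change -0.74, SE 0.29, adjusted p = 0.0615), and Kcnd3, an A-type pore, was at 7.54 ± 3.62 in saline and 4.24 ± 1.35 with Ang II (change -0.62, SE 0.25, adjusted p = 0.0603). Both were low in Saline 7, and both were called lower without Saline 7 and Saline 8, at -1.02 (SE 0.26, adjusted p = 0.00781) and -0.89 (SE 0.21, adjusted p = 0.00454). Leaving out 1 library sufficed for Kcnc4 (Saline 7, adjusted p = 0.0154, or Ang II 2, 0.0298) and for Kcnd3 (Saline 7, 0.0387, Saline 8, 0.0154, or Ang II 8, 0.0418). Kcnd1, another A-type pore, was at 0.852 ± 0.41 in saline and 1.23 ± 0.509 FPKM with Ang II (change 0.27, SE 0.16, adjusted p = 0.191) and Kcnq3, a KCNQ pore, was at 1.16 ± 0.616 in saline and 0.977 ± 0.725 with Ang II (change -0.14, SE 0.21, adjusted p = 0.631).

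Kcnf1, another silent subunit, moved against the class. Its saline libraries held 0 to 0.475 (median 0.144) FPKM, with Saline 8 listed at 0, and its Ang II libraries 0.368 to 1.58 (median 1.07). The Ang II libraries were above the saline range except Ang II 6, which was inside it. Kcnf1 rose from 0.19 ± 0.17 to 1.0 ± 0.467 FPKM (change 0.73, SE 0.15, adjusted p = 0.00154; 8.07-fold higher by voom). Below the expression filter, Kcna2, a Kv pore of nerve and muscle, had 528 reads over the saline libraries and 88 over the Ang II libraries. It was at 0.189, 0.683 and 1.18 FPKM (lowest, median and highest) in saline and 0.0487, 0.0865 and 0.226 with Ang II, and 7 of 8 Ang II libraries were under the saline range. Tested with no filter, it fell (change -0.56, SE 0.11, adjusted p = 0.00207), as did Kcnh1, the EAG pore (0.181 ± 0.110 to 0.0408 ± 0.0218 FPKM; change -0.18, SE 0.05, adjusted p = 0.0180). These were the only 2 of the 50 genes with reads below the filter to pass in that fit. The other 48 averaged at most 0.351 FPKM in either group, and 10 of them had at least 20 reads in both groups.

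The calcium- and sodium-activated pores summed to 35.5 ± 6.45 FPKM in saline and 26.1 ± 5.67 with Ang II. Of 6 tested genes, 2 fell (Kcnt1 and Kcnn1) and 0 rose (limma; also 0 at an unadjusted p under 0.05 and 0 by voom). Kcnma1, the BK pore and the most abundant of the class, held 9.47 to 26.9 (median 18.9) FPKM in saline and 10.5 to 24.6 (median 12.6) with Ang II. Saline 2, Saline 7 and Saline 8 were low within their group and Ang II 8 was high within its own. Kcnma1 gave no call at 17.4 ± 6.24 in saline and 13.7 ± 4.58 FPKM with Ang II (change -0.29, SE 0.21, adjusted p = 0.305). It was called lower without Saline 7 and Saline 8, at -0.53 (SE 0.18, adjusted p = 0.0287), and without Saline 2 as well, at -0.65 (SE 0.17, adjusted p = 0.00766).

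Its partner Kcnmb1, the BK beta subunit of smooth muscle that raises the calcium sensitivity of the channel, gave no call either. Kcnmb1 held 25 to 67.3 (median 54.6) FPKM in saline and 48 to 81.1 (median 53.7) with Ang II, with the same 3 saline libraries low and Ang II 8 high. The means were 48.7 ± 16 in saline and 56.7 ± 10.4 FPKM with Ang II (change 0.28, SE 0.19, adjusted p = 0.271). The log2 ratio of Kcnmb1 to Kcnma1, with 0.1 added to both FPKM values, was 1.49 ± 0.24 in saline (1.25 to 1.92) and 2.08 ± 0.21 with Ang II (1.72 to 2.38), a difference of 0.59 (exact two-sided permutation p = 0.000932, 0.00186 adjusted over 4 ratios). In 6 of 8 Ang II libraries the ratio was over the saline range. Without Saline 2, Saline 7 and Saline 8 the difference was 0.60 (adjusted p = 0.00311, exact permutation). A ratio shows unequal change of the 2 transcripts and not which of them changed.

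**Figure D4:**
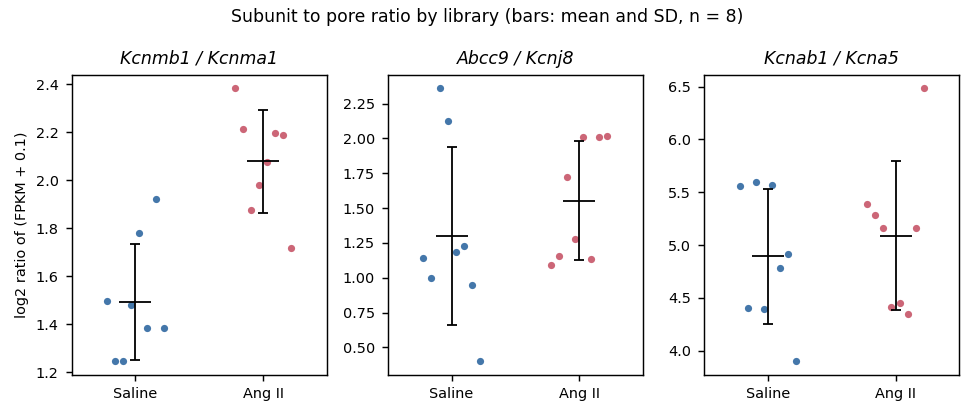
Log2 ratio of 3 subunit or partner genes to the pore they bind, with 0.1 added to each FPKM, in each library (points, 8 per group; bars show mean and SD). The Kcnmb1 to Kcnma1 ratio is over the saline range in 6 of 8, and the ratios with Kcnj8 and Kcna5 overlap.

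Kcnn1, a small-conductance pore opened by calcium through calmodulin, fell from 2.48 ± 0.726 to 1.48 ± 0.455 FPKM (change -0.49, SE 0.14, adjusted p = 0.0146). Kcnt1, a sodium-activated pore, held 0.176 to 5.43 (median 1.4) FPKM in saline and 0.0342 to 0.268 (median 0.0792) with Ang II. Saline 2 was the highest and Saline 7 the lowest of saline, and 6 of 8 Ang II libraries were under the saline range. Kcnt1 fell from 1.76 ± 1.66 to 0.113 ± 0.0909 FPKM (change -1.13, SE 0.26, adjusted p = 0.00295; 12.2-fold lower by voom). Without Saline 2 the change was -0.93 (adjusted p = 0.00229). Kcnn4, the intermediate-conductance pore of endothelium and dividing cells, was at 8.73 ± 3.22 in saline and 6.26 ± 1.68 FPKM with Ang II (change -0.40, SE 0.18, adjusted p = 0.096), and Kcnn3, a small-conductance pore, was at 1.72 ± 1.09 in saline and 1.55 ± 0.842 with Ang II (change -0.03, SE 0.26, adjusted p = 0.93). Without Saline 2, Saline 7 and Saline 8 the change of Kcnn3 was -0.50 (SE 0.20, adjusted p = 0.0668). Kcnt2, the other sodium-activated pore, was at 3.34 ± 1.56 in saline and 3.07 ± 1.42 FPKM with Ang II (change -0.08, SE 0.28, adjusted p = 0.836), and its change without those 3 libraries was -0.47 (SE 0.25, adjusted p = 0.153). The Kcnt2 ranges overlapped, and the difference between its change and that of Kcnt1 was not tested.

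By Spearman rank correlation over the 16 libraries, the channel genes most like Kcnma1 were Kcnd3 (0.79), Kcnt2 (0.78), Kcnmb1 (0.76), Kcnab1 (0.70) and Kcnn3 (0.69). Within saline alone the same 5 gave 0.79, 0.90, 0.79, 0.86 and 0.81, and within Ang II 0.62, 0.69, 0.45, 0.40 and 0.52. Kcnh2 ranked the other way within saline (-0.76). These libraries share the low Kcnma1 values of Saline 2, Saline 7 and Saline 8, and the coefficients are descriptions.

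The Kir genes summed to 39.0 ± 9.88 FPKM in saline and 38.7 ± 12.8 with Ang II, and within that sum the members moved in opposite directions. All 4 tested genes passed: Kcnj11, Kcnj8 and Kcnj12 fell and Kcnj15 rose. Kcnj11 encodes a pore of ATP-sensitive channels (chromosome 7, 46093953-46100764, minus strand), and held 6.34 to 10.5 (median 7.2) FPKM in saline and 0.755 to 5.63 (median 3.04) with Ang II. The groups did not overlap, and Ang II 1 was lowest. Kcnj11 fell from 8.02 ± 1.74 to 3.16 ± 1.6 FPKM (change -1.20, SE 0.22, adjusted p = 0.000636).

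Kcnj8, the ATP-sensitive pore of vascular smooth muscle and pericytes, held 11.9 to 29.6 (median 21.5) FPKM in saline and 6.6 to 28.2 (median 11.1) with Ang II. Ang II 6 was far above the other Ang II libraries and inside the saline range, and 6 of 8 Ang II libraries were under that range. Kcnj8 fell from 21.2 ± 6.06 to 12.7 ± 6.52 FPKM (change -0.75, SE 0.23, adjusted p = 0.0162). Abcc9, the sulfonylurea receptor that completes this channel, was at 54.2 ± 20.4 in saline and 36.5 ± 13.7 FPKM with Ang II (change -0.54, SE 0.26, adjusted p = 0.112); without Saline 8 it was called lower, at -0.71 (SE 0.21, adjusted p = 0.0157). The log2 ratio of Abcc9 to Kcnj8 was 1.30 ± 0.64 in saline and 1.55 ± 0.43 with Ang II (exact permutation p = 0.367). Kcnj12, a classical inward rectifier, fell from 1.2 ± 0.516 to 0.595 ± 0.26 FPKM (change -0.44, SE 0.16, adjusted p = 0.0465). Its call was lost in 21 of 30 alternatives, among them voom (1.99-fold lower, adjusted p = 0.0906) and the fit without Saline 2, Saline 7 and Saline 8 (adjusted p = 0.0618). Kcnj2, the best known inward rectifier of arteries, was below the filter at 0.318 ± 0.220 and 0.350 ± 0.199 FPKM.

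Kcnj15 encodes an inward rectifier best known from kidney and other epithelia (chromosome 16, 95257558-95300260, plus strand). Its saline libraries held 3.62 to 16.8 (median 6.68) FPKM and its Ang II libraries 12.8 to 30.8 (median 19.6). Ang II 6, Ang II 7 and Ang II 8 were the highest, 5 of 8 Ang II libraries were over the saline range, and Saline 5 lay inside the Ang II range. Kcnj15 rose from 7.84 ± 4.24 to 21.3 ± 7.75 FPKM (change 1.38, SE 0.26, adjusted p = 0.000694), the largest rise among the 35 genes on this scale.

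The K2P class was the least abundant, at 10.1 ± 2.65 FPKM in saline and 12.6 ± 2.00 with Ang II. Of its 3 tested genes 1 fell (Kcnk1), 1 rose (Kcnk6) and 1 gave no call (Kcnk3). Kcnk1, a weak background pore, held 0.513 to 2.69 (median 1.27) FPKM in saline and 0.101 to 0.787 (median 0.391) with Ang II. Only Ang II 2 reached the saline range. Kcnk1 fell from 1.43 ± 0.81 to 0.378 ± 0.20 FPKM (change -0.76, SE 0.18, adjusted p = 0.00405; 3.55-fold lower by voom). Kcnk6, a related pore known from vascular smooth muscle, held 1.87 to 5.2 (median 3.13) FPKM in saline and 4.23 to 6.91 (median 5.06) with Ang II. Saline 1 and Saline 4 lay within the Ang II range, and 3 Ang II libraries were above all of saline. Kcnk6 rose from 3.26 ± 1.25 to 5.23 ± 0.957 FPKM (change 0.59, SE 0.16, adjusted p = 0.0112), but without Saline 2, Saline 7 and Saline 8 it did not pass, at 0.33 (SE 0.14, adjusted p = 0.0745).

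Kcnk3, the acid-sensitive TASK pore that sets resting voltage in pulmonary artery muscle, was at 4.45 ± 2.6 in saline and 5.97 ± 2.46 FPKM with Ang II (change 0.40, SE 0.24, adjusted p = 0.204). Saline 8 and Ang II 4 were highest in their groups. Without Saline 8 it was called higher, at 0.57 (SE 0.20, adjusted p = 0.041). Exons of Kcnk3 overlap those of another gene over 5.76% of their length and those of Kcnk1 over 8.01%, and the sources used here do not say whether strand was used in counting, so reads there cannot be assigned with certainty. The same holds for Kcnma1 (5.98%), Kcnj15 (5.27%) and Kcnip4 (7.36%).

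Auxiliary subunits summed to 129.8 ± 36.4 FPKM in saline and 107 ± 17.4 with Ang II. Of 9 tested, 5 fell and 0 rose (limma; also 0 at an unadjusted p under 0.05 and 0 by voom), with a median change of -0.52. The KChIP proteins are calcium-binding subunits that bring the A-type pores of the Kcnd family to the surface, and all 3 tested members fell. Kcnip4 (chromosome 5, 48389502-49524907, minus strand) held 2.92 to 4.85 (median 3.8) FPKM in saline and 0.621 to 1.3 (median 1.12) with Ang II. The groups were far apart, with a gap wider than the range of the Ang II libraries. Kcnip4 fell from 3.75 ± 0.751 to 1.02 ± 0.239 FPKM (change -1.22, SE 0.12, adjusted p = 1.16e-06; 3.64-fold lower by voom), the smallest adjusted p among the channel genes.

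Kcnip1 held 2.78 to 9.23 (median 3.77) FPKM in saline and 0.812 to 4.54 (median 1.76) with Ang II. Saline 8 and Saline 2 were highest, and only Ang II 2 reached the saline range. Kcnip1 fell from 4.8 ± 2.36 to 2.0 ± 1.19 FPKM (change -0.95, SE 0.24, adjusted p = 0.00637). Kcnip3, a KChIP also known as a calcium-sensing transcriptional repressor, held 0.61 to 2.35 (median 1.3) FPKM in saline and 0.363 to 1.25 (median 0.448) with Ang II. Ang II 1 stood above the other Ang II libraries and inside the saline range. Kcnip3 fell from 1.37 ± 0.506 to 0.562 ± 0.296 FPKM (change -0.59, SE 0.15, adjusted p = 0.0052; 2.5-fold lower by voom).

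Kcnab1, a cytoplasmic beta subunit of Kv channels with an aldo-keto reductase fold, was the most abundant auxiliary gene in saline. It held 27 to 77.4 (median 64.3) FPKM in saline and 26.3 to 51.4 (median 33.8) with Ang II. Saline 2, Saline 7 and Saline 8 lay within the Ang II range and the other 5 saline libraries above it. Kcnab1 fell from 57.3 ± 20.9 to 34.6 ± 7.64 FPKM (change -0.64, SE 0.22, adjusted p = 0.0292), and by 1.05 (SE 0.13, adjusted p = 3.72e-05) without those 3 libraries. The log2 ratio of Kcnab1 to Kcna5 was 4.89 ± 0.64 in saline and 5.09 ± 0.71 with Ang II (exact permutation p = 0.573).

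Kcne3, a single-span subunit of KCNQ and other Kv pores, fell from 1.85 ± 0.653 to 1.04 ± 0.73 FPKM (change -0.52, SE 0.19, adjusted p = 0.0442; 2.01-fold lower by voom). The call was lost in 21 of 31 alternatives, among them the fits without Saline 7 and Saline 8 (adjusted p = 0.0651) and without Saline 2 as well (0.0927). Kcne4, a subunit that inhibits or modulates Kv and KCNQ pores, was at 9.44 ± 3.0 in saline and 8.65 ± 2.55 FPKM with Ang II (change -0.10, SE 0.21, adjusted p = 0.738) and gave no call. The remaining Kv beta subunits were at low levels: Kcnab2 was at 1.32 ± 0.705 in saline and 1.73 ± 0.801 FPKM with Ang II (change 0.23, SE 0.20, adjusted p = 0.376) and Kcnab3 was at 0.808 ± 0.628 in saline and 0.672 ± 0.261 with Ang II (change -0.07, SE 0.17, adjusted p = 0.765).

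**Figure D5:**
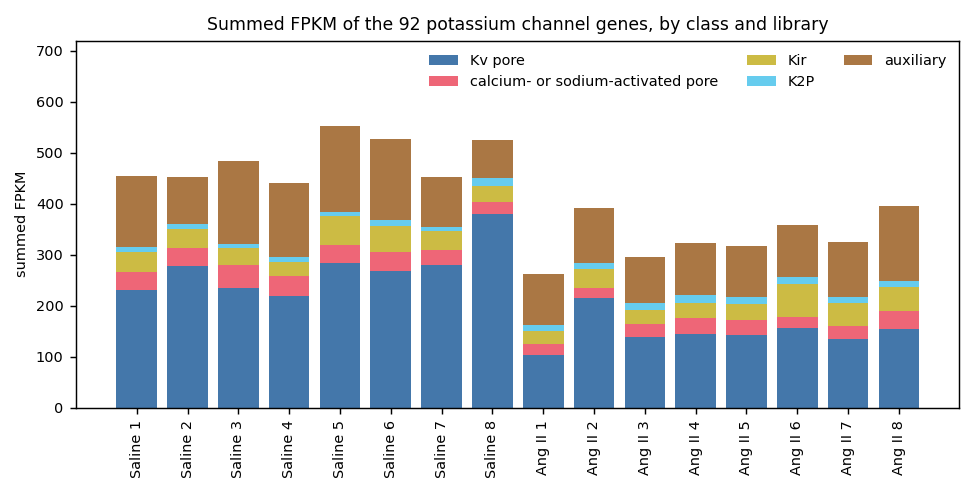
Summed FPKM of the 92 channel genes in each library, stacked by class. The total was 441 to 552 in the saline libraries and 262 to 396 in the Ang II libraries, and the Kv pores hold the largest block in all 16 libraries.

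Over all 92 genes the summed FPKM was 486 ± 43.0 in saline and 333 ± 46.0 with Ang II, with no overlap between the groups. Among the classes only the Kv sum separated the groups, and Kcnh2 alone went from 167 to 96.9 FPKM. Sums over other sets of genes were not compared. The order of levels between genes depends on the length used. The FPKM values rest on the mean transcript length of a gene, while the table also lists another length. With the deposited length Kcnh2 remained first in saline, Kcnab1 went from rank 2 to rank 6, Kcnmb1 from rank 4 to rank 2, and Kcnma1 from rank 7 to rank 10. Levels close in this order overlapped widely: in saline Kcnab1 (57.3 ± 20.9) and Kcnmb1 (48.7 ± 16) differed by less than their spread.

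Genes that bind potassium channels or share control of the membrane voltage were read from 2 lists. Of 12 channel partners 4 were tested, and 2 fell. Amigo1, a membrane protein that accompanies Kv pores, fell with no overlap from 12.1 ± 1.5 to 7.0 ± 1.09 FPKM (change -0.71, SE 0.11, adjusted p = 0.00012). Nedd4l, a ubiquitin ligase of Kv and sodium channels, fell from 7.03 ± 1.78 to 3.98 ± 0.701 FPKM (change -0.67, SE 0.14, adjusted p = 0.00183). Of 25 other genes of membrane voltage and calcium entry 22 were tested, and 5 rose and 5 fell. Among all genes tested 9.54% rose and 24.9% fell. Gja1, the gap junction protein connexin, rose with no overlap from 48.7 ± 18 to 176 ± 33 FPKM (change 1.90, SE 0.21, adjusted p = 5.44e-06). Atp1b1, the beta subunit of the sodium pump, rose from 8.68 ± 5.87 to 25 ± 8.66 FPKM (change 1.68, SE 0.40, adjusted p = 0.0039), and by 0.93 (SE 0.22, adjusted p = 0.00479) without Saline 2, Saline 7 and Saline 8. Exons of Atp1b1 overlap those of Nme7 over 18.7% of their length, so reads there cannot be assigned with certainty. Ano1, the calcium-activated chloride channel, rose from 91.1 ± 21.3 to 135 ± 35.7 FPKM (change 0.56, SE 0.17, adjusted p = 0.0169). That call was lost without Saline 7 and Saline 8 (0.42, adjusted p = 0.0546), without Saline 2 as well (0.45, adjusted p = 0.0589), and with a macrophage (adjusted p = 0.0652) or adipocyte (adjusted p = 0.0674) marker score as a covariate. Trpm4, a cation channel opened by calcium, fell from 41.1 ± 15 to 23.7 ± 4.24 FPKM (change -0.73, SE 0.17, adjusted p = 0.00298) and Trpv2, another cation channel, from 15.6 ± 2.25 to 11.5 ± 1.18 (change -0.41, SE 0.10, adjusted p = 0.00448). With median ratio scaling Trpv2 did not pass (-0.27, adjusted p = 0.0562).

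Markers of other cell types were measured in the same libraries. Of 8 macrophage markers 3 rose, and their summed FPKM was 14.3 to 543 in saline (median 45.5) and 46.0 to 584 with Ang II (median 186). With a macrophage marker score as a covariate, Kcnj15 rose by 1.60 (SE 0.30, adjusted p = 0.00165) and Kcnf1 by 0.63 (SE 0.18, adjusted p = 0.0202), while Kcnk6 no longer passed, at 0.52 (SE 0.20, adjusted p = 0.0739). The lower count in that fit was 12 of 35, against 14.4% of all genes. Of 5 tested Schwann cell and neuron markers 2 fell (Ncam1 among them), and the summed FPKM of all 10 was 126 to 495 in saline and 69.7 to 125 with Ang II, most of it Ncam1. The defining markers Sox10, Nefl, Th and Dbh averaged at most 0.102 FPKM in either group, and Th was at 0 in all saline libraries. With that list's score as a covariate the change of Kcnip4 was -1.22 (SE 0.13, adjusted p = 6.80e-06) and that of Kcns3 was -1.86 (SE 0.21, adjusted p = 1.27e-05). In that fit Kcnt1 changed by -0.83 and Kcnj15 by 1.10, and Kcne3 (adjusted p = 0.0861), Kcnh3 (0.0759) and Kcnj12 (0.127) did not pass. Adipocyte markers (1 of 7 tested fell) summed to a median of 93.1 FPKM in saline and 21.7 with Ang II. All 7 of their changes were below 0, with a median of -1.18. With the adipocyte score as a covariate Kcnk6 did not pass, at 0.41 (SE 0.15, adjusted p = 0.0606). Endothelial markers (1 of 8 fell) had medians of 966 and 824, and with their score the change of Kcnn4 was -0.39 (SE 0.18, adjusted p = 0.0913). Among tested markers of fibroblasts 1 of 6 fell, and of striated muscle 1 of 7. Of 8 smooth muscle markers 4 fell, all 8 changes were below 0, and 2 genes separated the groups completely. Their median change was -0.45, close to the -0.44 of the 35 channel genes tested. The part of smooth muscle content in the falls of channel genes was not tested.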

How the data were processed

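The 16 RNA-seq libraries were mRNA libraries from Trizol RNA of mouse aorta without adventitia (per the labels' protocols). The values are FPKM as deposited by the authors for 54532 genes. The submitters' processing notes name GRCm38 and mm10 as the build. Which aligner and counter were run, and whether strand was used, is not given in the sources used here. Genes were matched to GENCODE M21 (99.77% of IDs).

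The main test was limma 3.58.1 (R 4.3.3) applied to log2(FPKM + 1) with its trend option, where the mean reached 0.5 FPKM, with two-sided tests, a Benjamini-Hochberg threshold of 0.05 and no covariate. Subunit ratios used exact permutation tests over all 12870 assignments of the libraries. Spearman correlations used scipy 1.17.1. FPKM were whole multiples of 1 read (within 0.02) for 95.8% to 96.3% of values per library, and the reads recovered, for 84 of the 85 channel genes above 0, entered limma voom as an alternative. The fit was tested on simulated data. No 2 libraries of a group were copies of each other (lowest chi-square per degree of freedom 21.7 over 56 pairs).

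Named genes were all called channel genes, the most abundant gene of each class, a short list of vascular channel genes, and up to 8 called genes of the lists of partners and other membrane genes. Some genes that this rule names, and 1 of the 4 ratios, are counted but not reported here by name. The members and lists were chosen with earlier results of these data known. There were 31 alternatives, 1 of them (the macrophage covariate) added after seeing the data.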

Additional observations from a re-analysis of the deposited data

Results flagged for a closer look

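Within groups of 8 libraries, 8 of the 58 gene and group pairs checked held a library farther from its nearest neighbour than the 95% critical value of Dixon's test allows. All 8 were the highest library of their group. The rate of about 1 in 20 by chance assumes independent, normally distributed values. FPKM of several genes from the same libraries need not be so, and the count was not compared with that rate. Kcnh2 was at 269 FPKM in Saline 8, with the next library at 176. Kcnn4 was at 16 FPKM in Saline 7 (next 9.98) and Kcnt1 at 5.43 FPKM in Saline 2 (next 2.47). These are the 3 saline libraries that stood apart over all genes. Ang II 8 was highest for Kcnma1 at 24.6 FPKM (next 14.1), Kcnmb1 at 81.1 (next 59.0) and Kcnab1 at 51.4 (next 36.8), which are a pore, its beta subunit and a Kv beta subunit. Kcnj8 was at 28.2 FPKM in Ang II 6 (next 12.6) and Kcnip3 at 1.25 FPKM in Ang II 1 (next 0.695). The causes were not tested.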

How the results depend on the processing

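Of the 20 channel genes called, 12 kept their direction and their call in every alternative in which they were tested, among them Kcnip4, Kcns3, Kcnj11, Kcnj15, Kcnf1, Kcnh2, Kcnt1, Kcnk1, Kcnip3, Kcnip1 and Kcnj8. Leaving out 1 library ended the call of 6, among them Kcnh3 (Saline 2 or Ang II 3), Kcna5 (Saline 6, Ang II 3 or Ang II 8), Kcnab1 (Saline 3, 5 or 6, Ang II 1, 3 or 6), Kcne3 (11 libraries) and Kcnj12 (13 libraries). Over the alternatives the adjusted p (limma or the named test) reached 0.134 for Kcnh3, 0.167 for Kcna5, 0.133 for Kcnab1, 0.221 for Kcne3 and 0.127 for Kcnj12. Kcnk6 was lost with the adipocyte (adjusted p = 0.0606) or macrophage (0.0739) score as a covariate and without Saline 2, Saline 7 and Saline 8 (0.0745), and Kcnn1 with the adipocyte score (0.0759).

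The count of lower channel genes, 17 (24.9% of all genes), was 11 with median ratio scaling (14.1% of all genes) and 21 with sample weights (33.7%). It was 11 to 19 without 1 library (21.6% to 25.9% of all genes), and 11 without Ang II 3. The count of higher ones, 3 (9.54% of all genes), was 3 to 4 without 1 library (7.8% to 10.2%). It was 2 with the adipocyte score (6.64%), the macrophage score (5.42%) or a mean FPKM of at least 1 (9.63%). The median change of the channel genes tested was -0.65 with a pseudocount of 0.1 or with voom, and -0.02 with no filter, where 85 genes enter. For partners and other membrane genes, the 5 higher genes became 3 with no filter or the Schwann cell and neuron score, 2 with the adipocyte or macrophage score, 2 without Saline 7 and Saline 8, 2 without Saline 2 as well, and 3 to 5 without 1 library (3 without Saline 2, Ang II 3, 4, 5, 6 or 7). The 7 lower genes became 11 with sample weights, where 33.7% of all genes were lower. Changes that turned sign were all of genes or ratios with no call, and not all of them are listed. Kcnab2, for example, went to -0.14 with the macrophage score and Kcnt2 to 0.029 with median ratio scaling. Kcnab3 went to 0.092 without Saline 2, Saline 7 and Saline 8. Kcnmb1 went to -0.031 with sample weights and -0.082 without Saline 2, Saline 7 and Saline 8, and Kcne4 to 0.034 with median ratio scaling. Kcnn3 went to 0.042 with a pseudocount of 0.1, 0.044 with the endothelial score, 0.057 with median ratio scaling, 0.063 with the macrophage score, 0.047 with voom, and -0.17 to 0.066 without 1 library; it was -0.32 without Saline 7 and Saline 8 and -0.50 without Saline 2 as well. The Abcc9 to Kcnj8 ratio went to -0.056 without Saline 2, Saline 7 and Saline 8. The Kcnab1 to Kcna5 ratio went to -0.15 with a pseudocount of 1, -0.095 without those 3 libraries, and -0.0053 to 0.30 without 1 library. The causes were not tested.

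Libraries with the same replicate number did not deviate together in every pair (correlations -0.246 to 0.385). With correlations of mixed sign, this check cannot decide whether the numbers pair the samples. The main fit treated the libraries as unpaired. With the replicate number as a block, 14 channel genes were lower and 3 higher, against 23.5% and 9.42% of all genes. Among partner and other genes 5 were higher and 7 lower, and the Kcnmb1 to Kcnma1 ratio had adjusted p = 0.0156 (exact permutation). A saline library correlated best with its own number in 2 of 8 cases.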
